A study of Mus musculus with 24 samples.

Results

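The LKB1 kinase complex and the SIK kinases were examined in 3T3 MEFs, an immortalized line of mouse embryonic fibroblasts, by RNA-seq. The 8 genes were chosen by name for their role, not by a measured value: *Stk11*, which encodes LKB1, *Strada* and *Stradb*, which encode the STRAD pseudokinases, *Cab39* and *Cab39l*, which encode the MO25 scaffolds, and *Sik1*, *Sik2* and *Sik3*. They are 8 of the 55471 genes of the count tables, and all 8 were among the 17522 genes that passed the filter on low counts. The 24 libraries form 8 groups of 3, from wild-type (WT) MEFs, LKB1 knockout (*Lkb1*-/-) MEFs, and clones A1 and A2, which lack both LKB1 and CRTC2 (*Lkb1*-/-/*Crtc2*-/-). The labels call these genotypes WT, LKB1 KO and LKB1/CRTC2 KO. Each genotype was left untreated or stimulated with IL-1β, an inflammatory cytokine, for 6 hours. WT and *Lkb1*-/- MEFs are separate lines, and clones A1 and A2 were each grown from a single cell sorted after CRISPR-Cas9 editing of *Crtc2*, so that the knockout and other differences between lines cannot be told apart. Nothing in the labels says that libraries of a group came from separate cultures, so the tests measure the spread between these libraries, which may be technical.

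LKB1 is a tumor suppressor kinase that is active in a complex with a STRAD pseudokinase and an MO25 scaffold. STRAD holds LKB1 in the cytoplasm and in its active conformation, and MO25 stabilizes the complex. The complex phosphorylates the activation loop of AMPK and of its relatives, among them the salt-inducible kinases (SIKs). SIKs phosphorylate the CRTC coactivators of CREB and class IIa histone deacetylases, which then bind 14-3-3 proteins and stay in the cytoplasm. Transcription of *Sik1* is itself induced by cAMP and CREB, whereas activity of all 3 SIKs is restrained by PKA.

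The genes lie on 6 chromosomes of GRCm38. *Stk11* is at chr10:80115803-80130682 on the plus strand, *Strada* at chr11:106163330-106202168 on the minus strand, and *Stradb* at chr1:58973522-58995715 on the plus strand. *Cab39* is at chr1:85793441-85851576 and *Cab39l* at chr14:59440972-59585764, both on the plus strand. *Sik1* is at chr17:31844250-31855804 and *Sik2* at chr9:50892801-51009073, both on the minus strand, and *Sik3* is at chr9:46012820-46224194 on the plus strand. All 8 are annotated as protein coding, and their merged exons span between 4580 bases for *Stk11* and 9539 bases for *Sik2*.

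Promoters of *Sik2* and *Sik3* are printed because these SIK genes lie on the same chromosome and were both lower in *Lkb1*-/- MEFs, and because their windows hold letters of the cAMP response element (CRE), the site that CREB binds. Each sequence is from RefSeq on GRCm38.p6, covers 250 bases before to 50 after the annotated start in the direction of the gene, and has each TGACG on either strand in capitals.
Sik2, chr9:51009024-51009323, minus strand: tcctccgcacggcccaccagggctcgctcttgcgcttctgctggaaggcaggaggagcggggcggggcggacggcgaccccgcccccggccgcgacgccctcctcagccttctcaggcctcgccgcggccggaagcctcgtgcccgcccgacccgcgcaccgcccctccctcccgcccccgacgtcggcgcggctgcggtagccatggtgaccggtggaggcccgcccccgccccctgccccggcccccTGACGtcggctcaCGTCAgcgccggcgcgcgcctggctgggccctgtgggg
Sik3, chr9:46012570-46012869, plus strand: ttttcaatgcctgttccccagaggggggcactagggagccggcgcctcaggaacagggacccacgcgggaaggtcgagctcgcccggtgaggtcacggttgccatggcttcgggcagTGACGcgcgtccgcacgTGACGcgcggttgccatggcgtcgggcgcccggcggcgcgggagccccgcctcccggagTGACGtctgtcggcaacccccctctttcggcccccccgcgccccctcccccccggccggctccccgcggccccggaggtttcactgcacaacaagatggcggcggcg

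The letters TGACG, searched on both strands, occur 2 times in the *Sik2* window, with first bases at -1 and 12 relative to the start, and 3 times in the *Sik3* window, at -133, -116 and -57. At least 1 match was present in 20.8% of 32851 promoter windows of the same length, and the full element TGACGTCA, which contains TGACG on both strands, in 1.79%. The windows of *Stk11*, *Stradb* and *Cab39* hold 1 match each to TGACG, those of *Strada* and *Cab39l* hold none, and no window of these 7 genes holds TGACGTCA. The RefSeq table used here has no entry for *Sik1*.

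Levels of different genes were compared as RPKM, reads scaled to exon length in kilobases and to library size. In untreated WT MEFs, the mean RPKM of 3 libraries was highest for *Cab39*, at 24.8 ± 0.45 (SD), followed by *Stk11* at 18.8 ± 0.37 and *Sik3* at 16.4 ± 0.28. It was 10.9 ± 0.55 for *Cab39l*, 6.52 ± 0.15 for *Sik2*, 4.26 ± 0.34 for *Sik1*, 2.90 ± 0.21 for *Strada* and 1.65 ± 0.074 for *Stradb*. Neighboring genes in this order did not overlap in their libraries. The order places *Cab39* at percentile 86.8 and *Stradb* at percentile 41.7 of the 17502 tested genes with a length.

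Libraries held between 38842901 and 48594394 counts on genes, and the members between 226 counts for *Stradb* and 7992 for *Cab39* in a library. The fibroblast genes *Vim*, *Col1a1* and *Fn1* were present at 599 CPM (counts scaled to library size) or more in every library, whereas the fibroblast marker *Thy1* had at most 3 counts. Other fibroblast markers differed strongly between untreated WT and *Lkb1*-/- MEFs, among them *Pdgfra* (4.58 and 342 CPM) and *Col1a2* (780 and 63 CPM), and of the 9 markers tested 4 were higher and 4 lower in *Lkb1*-/- MEFs, beside 30.1% of all genes higher and 25.8% lower. The summed level of the 10 fibroblast markers ranged from 5730 to 8870 CPM in WT MEFs, *Lkb1*-/- MEFs and clone A2 and from 8520 to 10700 CPM in clone A1. *Cdh1*, *Ptprc*, *Cdh5* and *Myod1*, which define epithelial, haematopoietic, endothelial and muscle cells, had at most 7 counts in any library, and the summed markers of these cell types reached at most 2.93, 6.82, 3.8 and 1.21 CPM. The members of these lists with the most counts were *Krt19* (at most 111 counts), *Cd68* (309), *Kdr* (151) and *Des* (55), of which *Kdr* (2.73 on the log2 scale) and *Des* (1.94) were higher and *Krt19* (-1.91) lower in untreated *Lkb1*-/- than in WT MEFs. *Epcam*, the other epithelial marker that was tested, was higher (2.77, at most 13 counts). The markers named here were chosen after their values were seen, and the part of their differences in the results was not tested. The libraries numbered 1 had a larger share of read pairs without a gene (29.9% to 34.4%) than those numbered 2 and 3 (26.7% to 30.0%), and their part in the results was examined by leaving them out.

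*Stk11* expression was strongly reduced but not absent in every line labelled as lacking LKB1. It was at 84.6, 85.5 and 87.9 CPM in untreated WT libraries 1, 2 and 3 and at 18.7, 17.0 and 16.3 CPM in the *Lkb1*-/- libraries. In clone A1 it was at 21.8, 21.6 and 20.7 CPM, and in clone A2 at 18.9, 17.4 and 17.9 CPM. No library of the 3 lines lacking LKB1 came near the WT range, and the difference of *Lkb1*-/- from WT MEFs was a log2 fold change of -2.31 (edgeR FDR = 1.1e-16, SE 0.0701), a level 0.202 times that of WT. In bulk libraries such as these, fewer cells with a transcript and less of it per cell cannot be told apart. The remaining *Stk11* reads numbered between 678 and 1051 in a library without LKB1. The files count reads per gene, so the exons they came from cannot be told apart. On the opposite strand, *Stk11* had between 9 and 36 reads in any library. *Stk11* shares 232 exon bases, or 5.07% of its exons, with *Cbarp* on that strand.

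*Stk11* also differed among the lines that lack LKB1. Relative to *Lkb1*-/- MEFs it was higher in clone A1, by a log2 fold change of 0.30 untreated (edgeR FDR = 0.0016) and 0.42 with IL-1β (FDR = 5.5e-05). In clone A2 the difference was 0.06 untreated (95% interval -0.084 to 0.20, FDR = 0.56) and 0.30 with IL-1β (FDR = 0.0018, and 0.11 when only the groups compared were fitted). Untreated clone A2 was below clone A1 by a log2 fold change of -0.24 (FDR = 0.0096). This call was lost without clone A2 library 2 (-0.21, FDR = 0.077) or library 3 (-0.22, FDR = 0.064), with unstranded counts (-0.20, FDR = 0.051), without the filter on low counts (-0.25, FDR = 0.071) and with only the groups compared (-0.24, FDR = 0.078). With IL-1β the difference was -0.12 (FDR = 0.20), and it was called only without treated clone A2 library 1 (-0.21, FDR = 0.032) or all libraries numbered 1 (-0.19, FDR = 0.02).

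**Figure D1:**
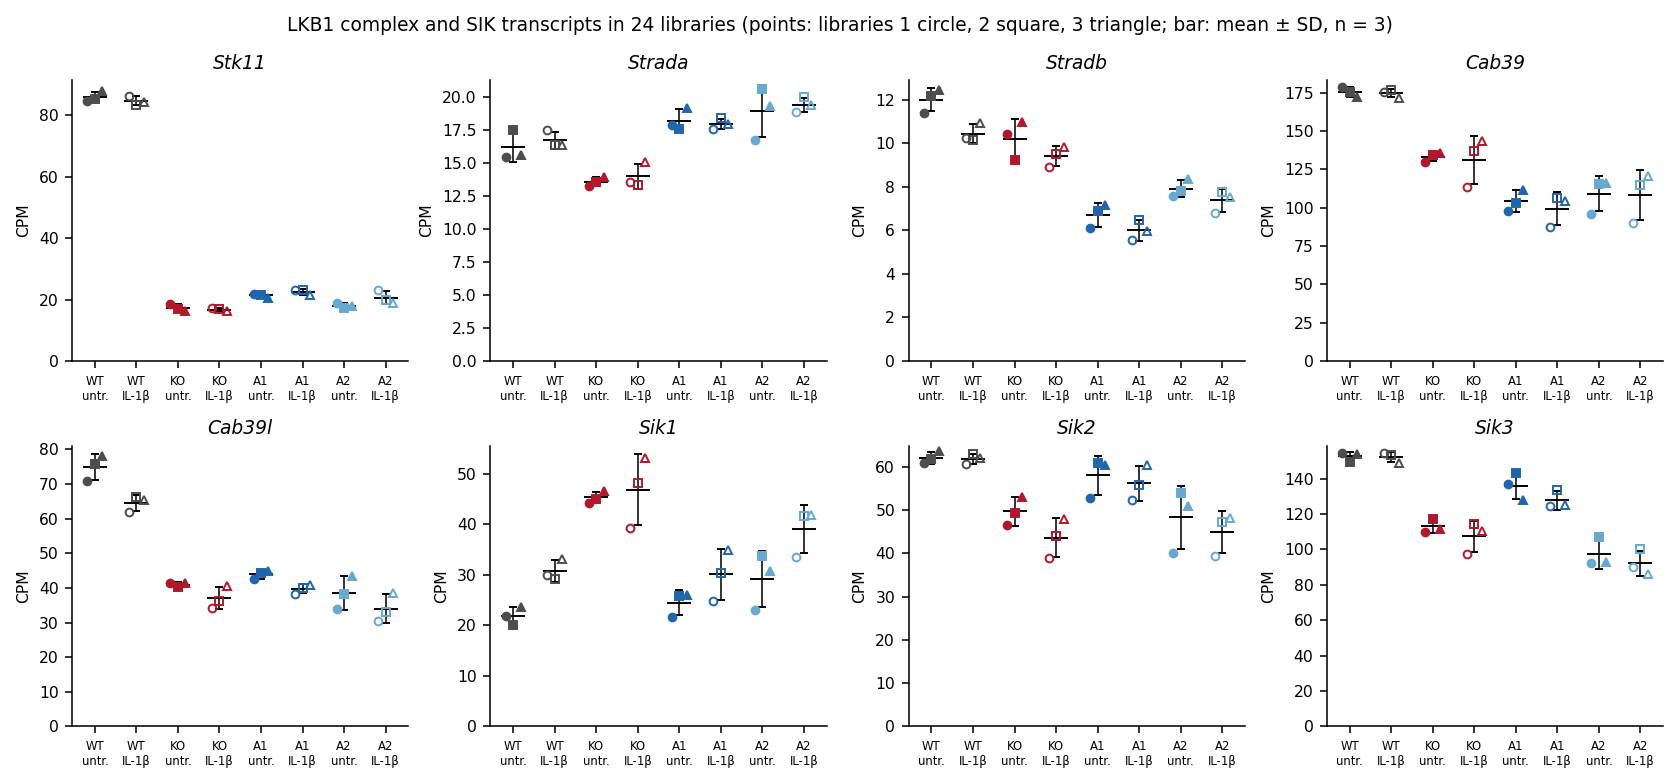
Expression of the 8 genes in CPM (y axis, from 0) in 24 libraries by line and treatment (x axis). Points are libraries, filled when untreated and open after IL-1β, with circles, squares and triangles for numbers 1, 2 and 3, and bars give the mean ± SD of 3. *Stk11* is at 83.4 CPM or more in each WT library and at 23.2 CPM or less in all others, and the group means of *Sik1* are highest in *Lkb1*-/- MEFs.

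Both STRAD genes were lower in untreated *Lkb1*-/- than in WT MEFs, and they moved in different directions in the clones. *Strada*, the more expressed pseudokinase gene, was at 15.4, 17.5 and 15.5 CPM in untreated WT libraries, against 13.2, 13.6 and 13.9 CPM in *Lkb1*-/- libraries. It was at 17.8, 17.5 and 19.1 CPM in clone A1 and at 16.7, 20.6 and 19.3 CPM in clone A2. *Strada* thus fell in *Lkb1*-/- MEFs, by a log2 fold change of -0.25 untreated (edgeR FDR = 0.0081) and -0.26 with IL-1β (FDR = 0.007), with no overlap between untreated groups. Both clones lay above *Lkb1*-/- MEFs, by 0.42 for A1 (FDR = 0.0002) and 0.48 for A2 (FDR = 7.2e-05) when untreated. Clone A2 was also above WT by 0.22 (FDR = 0.016), and clone A1 by 0.17 (FDR = 0.069, 0.041 once replicate numbers were fitted as a block, 0.03 without WT library 2, and 0.0035 at 0.26 under upper quartile scaling). The untreated *Lkb1*-/- call was lost without WT library 2 (-0.19, FDR = 0.062), and the IL-1β call without all libraries numbered 1 (-0.21, FDR = 0.052) under upper quartile scaling (-0.16, FDR = 0.059) and with only the groups compared (-0.22, FDR = 0.064). Without the filter on low counts neither was called (-0.26, FDR = 0.098, and -0.23, FDR = 0.16). For clone A2 against WT, the untreated call was lost without WT library 1 (0.19, FDR = 0.071) or 3 (0.16, FDR = 0.11) and without clone library 2 (0.12, FDR = 0.20) or 3 (0.18, FDR = 0.077). It was also lost with unstranded counts (0.17, FDR = 0.076), without the filter (0.19, FDR = 0.28) and with only the groups compared (0.22, FDR = 0.12). *Strada* shares 158 exon bases with *Ccdc47* on the same strand.

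*Stradb* was lowest in the clones. It was at 11.4, 12.2 and 12.4 CPM in untreated WT libraries, at 10.4, 9.21 and 10.98 CPM in *Lkb1*-/- libraries, at 6.10, 6.87 and 7.15 CPM in clone A1 and at 7.58, 7.80 and 8.36 CPM in clone A2. No clone library reached the lowest *Lkb1*-/- library. Relative to *Lkb1*-/- MEFs the log2 fold change was -0.61 in clone A1 (edgeR FDR = 2.8e-05) and -0.37 in clone A2 (FDR = 0.0038), and with IL-1β it was -0.65 and -0.35. The clone A2 calls were lost without the filter on low counts (-0.39, FDR = 0.058 untreated, and -0.37, FDR = 0.081 with IL-1β). *Lkb1*-/- MEFs differed from WT by -0.23 untreated (FDR = 0.034) and by -0.15 with IL-1β, which was not called (FDR = 0.18, and 0.095 with the replicate block). The untreated call was lost without library 2 of WT (-0.22, FDR = 0.085) or of *Lkb1*-/- MEFs (-0.16, FDR = 0.18), under upper quartile scaling (-0.15, FDR = 0.11), without the filter on low counts (-0.24, FDR = 0.28) and with only the groups compared (-0.22, FDR = 0.075). With IL-1β, clone A2 was above clone A1 by 0.30 (FDR = 0.019), a call lost without clone A1 library 1 (0.24, FDR = 0.092) or clone A2 library 2 (0.26, FDR = 0.066), without the filter (0.28, FDR = 0.29) and with only the groups compared (0.28, FDR = 0.11). Untreated, this difference was 0.24 (FDR = 0.053, 0.015 with the block, 0.026 under upper quartile scaling, 0.044 with DESeq2 size factors, 0.037 by DESeq2, 0.047 without clone A2 library 1 and 0.048 without clone A1 library 3).

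Both MO25 genes fell in *Lkb1*-/- MEFs. *Cab39* was at 178, 175 and 172 CPM in untreated WT libraries, against 130, 134 and 136 CPM in *Lkb1*-/- libraries, a log2 fold change of -0.40 (edgeR FDR = 0.0022). *Cab39l* was at 70.8, 75.7 and 78.1 CPM in WT and at 41.3, 40.2 and 41.4 CPM in *Lkb1*-/- libraries, a log2 fold change of -0.87 (FDR = 2e-08). Neither gene overlapped between these groups, and after IL-1β the differences were -0.41 (FDR = 0.0016) and -0.80 (FDR = 6.9e-08). Among the members other than *Stk11*, *Cab39l* had the largest decrease in *Lkb1*-/- MEFs.

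The MO25 genes parted in the clones. *Cab39* was lower still, at 97.6, 103 and 112 CPM in clone A1 and 96.1, 115 and 116 CPM in clone A2, or -0.36 (edgeR FDR = 0.0091) and -0.29 (FDR = 0.035) relative to *Lkb1*-/- MEFs. *Cab39l* remained within 33.9 to 45.0 CPM, with differences from *Lkb1*-/- MEFs of 0.10 in clone A1 (95% interval -0.076 to 0.28, FDR = 0.39) and -0.09 in clone A2 (-0.27 to 0.093, FDR = 0.50). The *Cab39* call for untreated clone A2 was lost without any library of *Lkb1*-/- MEFs (FDR = 0.055, 0.084 and 0.072 without 1, 2 and 3) without clone library 1 (-0.19, FDR = 0.14) and with unstranded counts (-0.27, FDR = 0.069). With IL-1β it was -0.28 (FDR = 0.042), and was lost without *Lkb1*-/- library 2 (-0.25, FDR = 0.13) or 3 (-0.20, FDR = 0.17) or clone library 1 (-0.14, FDR = 0.24), with unstranded counts (-0.25, FDR = 0.094) and with only the groups compared (-0.31, FDR = 0.081). With the replicate block, *Cab39l* was lower in clone A2 than in clone A1, by -0.19 untreated (FDR = 0.0075, and 0.10 without the block) and -0.23 with IL-1β (FDR = 0.0023, and 0.054 without it). Without clone A2 library 3 these differences were -0.27 (FDR = 0.015) and -0.33 (FDR = 0.0026), and under upper quartile scaling -0.19 (FDR = 0.022) and -0.25 (FDR = 0.0046). DESeq2 called the latter (-0.22, FDR = 0.047). *Cab39l* shares 261 exon bases with *Cdadc1* on the opposite strand.

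*Sik1* was the only member that rose in *Lkb1*-/- MEFs. It was at 21.9, 20.1 and 23.6 CPM in untreated WT libraries, against 44.3, 45.1 and 46.6 CPM in *Lkb1*-/- libraries, a 2.08-fold increase (log2 fold change 1.05, edgeR FDR = 1.5e-06, SE 0.14). After IL-1β it was at 30.0, 29.2 and 33.2 CPM in WT and at 39.4, 48.2 and 53.2 CPM in *Lkb1*-/- libraries (0.61, FDR = 0.00075). WT and *Lkb1*-/- libraries did not overlap under either treatment.

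*Sik1* was lower in both clones than in *Lkb1*-/- MEFs when untreated. It was at 21.7, 25.8 and 26.0 CPM in clone A1, a log2 fold change of -0.89 (edgeR FDR = 3.9e-05), and at 22.97, 33.8 and 30.7 CPM in clone A2, a log2 fold change of -0.64 (FDR = 0.0012). These comparisons share the *Lkb1*-/- libraries with the comparison to WT, so each clone was also set against WT. Clone A1 differed from WT by 0.16 (95% interval -0.13 to 0.46, FDR = 0.34) and clone A2 by 0.42 (FDR = 0.014). The call for clone A2 was lost without WT library 2 (0.36, FDR = 0.065) or clone library 2 (0.26, FDR = 0.12) or 3 (0.34, FDR = 0.055), and clone A1 was called without all libraries numbered 1 (0.25, FDR = 0.038).

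With IL-1β, *Sik1* was at 24.9, 30.4 and 35.0 CPM in clone A1, below *Lkb1*-/- MEFs by -0.64 (edgeR FDR = 0.00099). In clone A2 it was at 33.5, 41.7 and 41.9 CPM, and its difference from *Lkb1*-/- MEFs was -0.26, which was not called (FDR = 0.15) except with the replicate block (FDR = 0.017), without the filter on low counts (-0.28, FDR = 0.033) and without the libraries numbered 1 (-0.28, FDR = 0.026). Clone A2 lay above clone A1 by 0.38 (FDR = 0.045), a call lost without clone A1 library 1 (0.25, FDR = 0.22) or 2 (0.38, FDR = 0.096) or clone A2 library 2 (0.33, FDR = 0.11) or 3 (0.32, FDR = 0.11), with unstranded counts (0.38, FDR = 0.058) and with only the groups compared (0.36, FDR = 0.062). It also lay above WT by 0.34 (FDR = 0.038), a call lost without WT library 1 (0.33, FDR = 0.092) or 2 (0.31, FDR = 0.11) or clone library 2 (0.28, FDR = 0.12) or 3 (0.33, FDR = 0.054), and with unstranded counts (0.32, FDR = 0.064). Untreated, clones A2 and A1 differed by 0.25 (FDR = 0.18, 0.03 with the block, 0.021 without clone A2 library 1, and 0.014 without all libraries numbered 1).

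*Sik2* and *Sik3* fell in *Lkb1*-/- MEFs. *Sik2* was at 61.0, 61.8 and 63.7 CPM in untreated WT and at 46.6, 49.4 and 53.1 CPM in *Lkb1*-/- libraries (-0.32, edgeR FDR = 0.009), and *Sik3* at 154, 150 and 154 CPM and at 110, 117 and 112 CPM (-0.43, FDR = 1.8e-05). The groups did not overlap for either gene. After IL-1β the log2 fold changes were -0.51 for *Sik2* (FDR = 0.00019) and -0.50 for *Sik3* (FDR = 2.6e-06). *Sik2* shares 1429 exon bases, or 15% of its exons, with *Ppp2r1b* on the opposite strand, but had at most 19 reads of the opposite strand in any library.

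The clones differed from each other in *Sik3*. It was at 137, 143 and 128 CPM in clone A1 and at 92.3, 107 and 93.0 CPM in clone A2, a difference between clones of -0.48 (edgeR FDR = 1.8e-05), and of -0.47 with IL-1β (FDR = 2.7e-05). Relative to *Lkb1*-/- MEFs it was higher in clone A1 by 0.27 (FDR = 0.0046) and lower in clone A2 by -0.21 (FDR = 0.022). The call for clone A2 was lost without *Lkb1*-/- library 2 (-0.19, FDR = 0.089) or clone library 1 (-0.17, FDR = 0.092) or 3 (-0.15, FDR = 0.13), and without *Lkb1*-/- library 1 the FDR was 0.05. It was also lost with only the groups compared (-0.22, FDR = 0.052) and without all libraries numbered 1 (-0.20, FDR = 0.065). With IL-1β the difference was 0.25 for clone A1 (FDR = 0.0073, 0.056 without *Lkb1*-/- library 1, and 0.054 without all libraries numbered 1) and -0.22 for clone A2 (FDR = 0.019), the last of which was lost without *Lkb1*-/- library 2 (-0.17, FDR = 0.10) or 3 (-0.19, FDR = 0.07) or clone library 1 (-0.18, FDR = 0.068) or 3 (-0.18, FDR = 0.069), with unstranded counts (-0.19, FDR = 0.05) and with only the groups compared (-0.25, FDR = 0.064). Untreated clone A1 was below WT in *Sik3* by -0.17 (FDR = 0.05), a call lost without WT library 1 (FDR = 0.11) or 2 (FDR = 0.069), clone library 1 (FDR = 0.085) or 3 (-0.12, FDR = 0.21), under upper quartile scaling (-0.08, FDR = 0.33), without the filter (FDR = 0.084), with only the groups compared (FDR = 0.051) and without all libraries numbered 1 (FDR = 0.093). Clone A2 was below WT by -0.65 (FDR = 6.2e-08).

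*Sik2* was at 52.8, 60.8 and 60.6 CPM in untreated clone A1 and at 40.1, 53.9 and 51.0 CPM in clone A2. Clone A1 differed from *Lkb1*-/- MEFs by 0.22 (edgeR FDR = 0.089, 0.0034 with the replicate block, 0.015 under upper quartile scaling, 0.045 with only the groups compared, 0.044 without *Lkb1*-/- library 3, and 0.0039 without all libraries numbered 1) and by 0.37 with IL-1β (FDR = 0.0066). Clone A2 differed from them by -0.04 (95% interval -0.25 to 0.17, FDR = 0.80). Clone A2 was below clone A1 by -0.26 untreated (FDR = 0.047) and -0.32 with IL-1β (FDR = 0.017). The untreated call was lost without clone A2 library 1 (-0.15, FDR = 0.19) or clone A1 library 2 (-0.23, FDR = 0.15) or 3 (-0.24, FDR = 0.14), with unstranded counts (-0.27, FDR = 0.052) and with only the groups compared (-0.27, FDR = 0.095), and the IL-1β call without clone A2 library 1 (-0.23, FDR = 0.065) or clone A1 library 3 (-0.27, FDR = 0.057). With IL-1β, *Sik2* in clone A1 was -0.14 from WT (FDR = 0.24, 0.038 with the block, and 0.047 with only the groups compared).

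**Figure D2:**
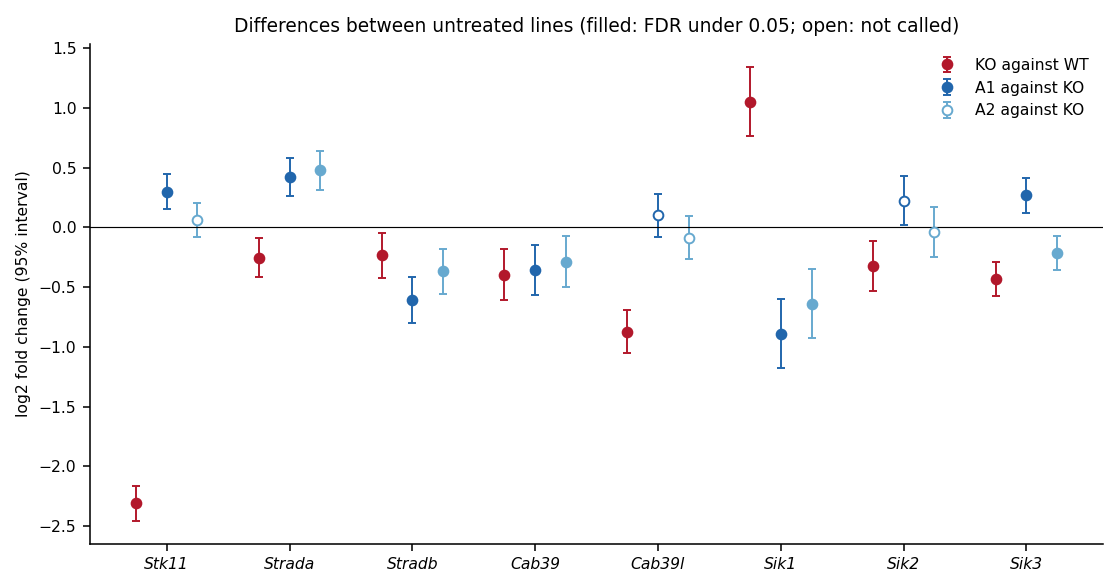
Log2 fold changes of the 8 genes between untreated lines (y axis) with 95% intervals, for *Lkb1*-/- against WT MEFs and each clone against *Lkb1*-/- MEFs. Filled points were called at an edgeR FDR under 0.05 and open points were not; *Sik1* is the only gene above 0 in *Lkb1*-/- MEFs, at 1.05, and lies below 0 in both clones.

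Counted over the members, 8 of 8 were called between untreated *Lkb1*-/- and WT MEFs, 1 higher and 7 lower, and 7 of 8 with IL-1β, 1 higher and 6 lower. These counts have to be read against the background, since 55.9% of the 17522 genes tested were called untreated (30.1% higher and 25.8% lower) and 57.4% with IL-1β (30.2% higher and 27.1% lower). The median log2 fold change of the members was -0.36 untreated, beside 0.04 for all genes tested. Without single libraries the untreated count ranged from 6 to 8.

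Clone A1 differed from *Lkb1*-/- MEFs in 6 members untreated (35.3% of all genes called, 18.9% higher and 16.4% lower) and in 7 with IL-1β (36.7%), and clone A2 in 5 under both treatments (32.3% untreated, 17.1% higher and 15.1% lower, and 32.8% with IL-1β). Relative to WT, 5 members were called in clone A1 under both treatments (55.4% untreated and 56.9% with IL-1β) and 8 in clone A2 under both (60.6% and 60.8%). The clones differed from each other in 3 members untreated (32.5%) and 4 with IL-1β (30.7%), and with the replicate block in 6 untreated, where 46.3% of all genes were called.

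The lines also differed over whole chromosomes, and some members lay near the median of theirs while others did not. The other tested genes of chromosome 17, which carries *Sik1*, were at a median of 0.25 (log2 fold change) in untreated *Lkb1*-/- against WT MEFs, beside 1.05 for *Sik1*. In clone A1 against *Lkb1*-/- MEFs that median was -0.38, beside -0.89 for *Sik1*, and in clone A2 it was 0.07, beside -0.64. *Sik1* thus lay beyond its chromosome in these 3 comparisons, and in clone A2 against *Lkb1*-/- MEFs it lay on the other side of 0. In clone A2 against WT MEFs, *Sik1* was at 0.42 untreated and 0.34 with IL-1β, close to the chromosome medians of 0.34 and 0.33. In clone A2 against clone A1 it was at 0.25 untreated and 0.38 with IL-1β, below the chromosome median of 0.47 under both treatments.

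On chromosome 11, the medians of 0.29 in clone A1 and 0.34 in clone A2 relative to *Lkb1*-/- MEFs were close to the 0.42 and 0.48 of *Strada*. Relative to untreated WT MEFs, the medians were 0.16 in clone A1 and 0.23 in clone A2, beside 0.17 and 0.22 for *Strada*. On chromosome 9, the clone A1 median of 0.32 exceeded both the 0.22 of *Sik2* and the 0.27 of *Sik3*, and that of clone A2 was 0.03, beside -0.04 for *Sik2* and -0.21 for *Sik3*. For clone A2 against clone A1, the chromosome 9 median was -0.29 untreated and -0.32 with IL-1β. *Sik2* was close to it, at -0.26 and -0.32, and *Sik3* was lower, at -0.48 and -0.47. Chromosome 10, which carries *Stk11*, had a median of -0.44 in *Lkb1*-/- MEFs and lay 0.39 higher in clone A1 and 0.27 higher in clone A2 than in *Lkb1*-/- MEFs, beside 0.30 and 0.06 for *Stk11*. The part of these shifts in the differences of the members was not tested.

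Chromosome 1 had a median of -0.29 in *Lkb1*-/- MEFs, beside -0.23 for *Stradb* and -0.40 for *Cab39*, and of -0.11 in clone A1 and -0.09 in clone A2 relative to *Lkb1*-/- MEFs, where *Stradb* was at -0.61 and -0.37 and *Cab39* at -0.36 and -0.29. The 62 tested genes within 5 Mb of *Cab39* had a median of -0.07 in *Lkb1*-/- MEFs. *Cab39l* stood apart from chromosome 14, whose median was -0.02 in *Lkb1*-/- MEFs, and from the 119 tested genes within 5 Mb of it, whose median was 0.08, beside -0.87 for the gene. *Sik3* in *Lkb1*-/- MEFs, at -0.43, was likewise below the medians of chromosome 9 (-0.12) and of the 99 tested genes within 5 Mb (0.04).

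**Figure D3:**
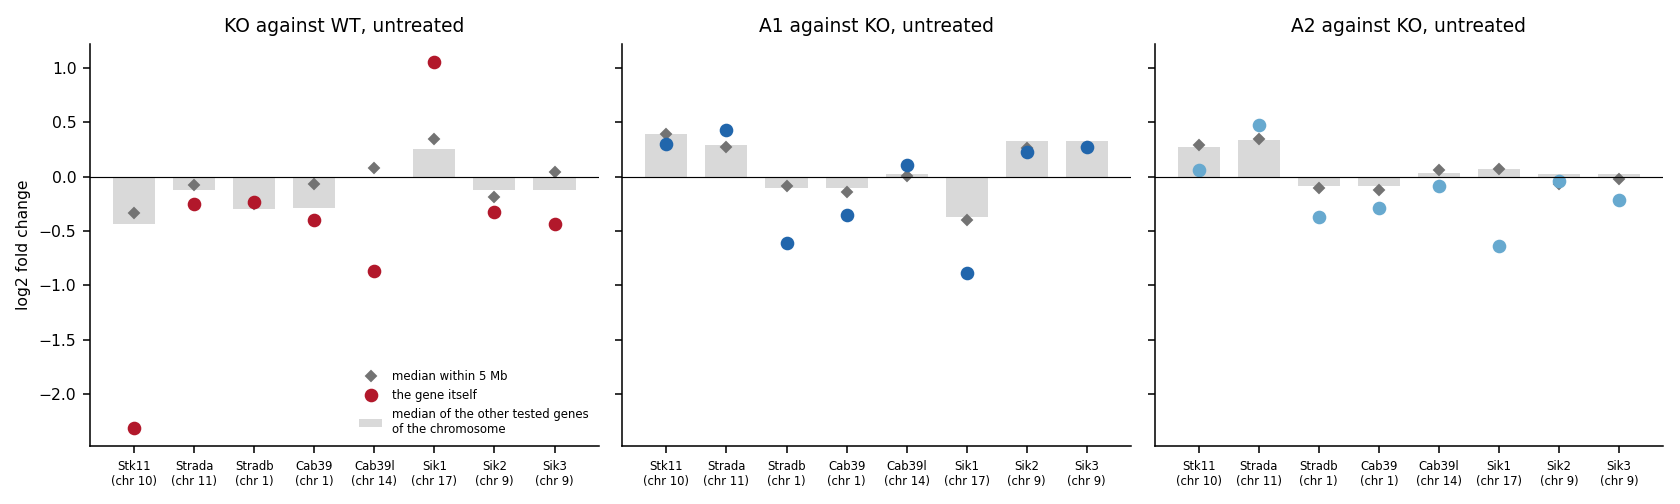
Log2 fold change (y axis) of each of the 8 genes (large points) beside the median of the other tested genes of its chromosome (gray bars) and of those within 5 Mb on either side (diamonds), in 3 comparisons of untreated lines. *Cab39l* is at -0.87 in *Lkb1*-/- MEFs while chromosome 14 is at -0.02, whereas *Strada*, *Sik2* and *Sik3* lie near their chromosomes in clone A1.

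Composition of the paralog pools does not depend on the scaling between libraries. Of the summed RPKM of the 3 SIK genes in untreated WT MEFs, *Sik1* made up 15.7% ± 0.88 (SD, n = 3), *Sik2* 24.01% ± 0.50 and *Sik3* 60.3% ± 0.80. In *Lkb1*-/- MEFs *Sik1* made up 33.8% ± 0.56 and *Sik3* 46.4% ± 1.2. The summed SIK level was 27.1 ± 0.67 RPKM in WT and 26.2 ± 0.73 RPKM in *Lkb1*-/- MEFs, with IL-1β 28.8 ± 0.13 and 25.2 ± 2.7 RPKM, and in untreated clones A1 and A2 25.5 ± 1.2 and 21.2 ± 2.6 RPKM.

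The *Sik1* share was 18.7% ± 1.5 in clone A1 and 26.6% ± 2.2 in clone A2. With IL-1β it was 20.8% ± 1.3 in WT MEFs, 36.1% ± 1.8 in *Lkb1*-/- MEFs, 22.9% ± 2.6 in clone A1 and 34.2% ± 2.1 in clone A2. Libraries of *Lkb1*-/- MEFs were at 33.1% to 38.1% under both treatments and did not overlap with WT, at 14.8% to 22.3%. These shares are given as a description, without a test.

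*Strada* made up 63.7% ± 1.6 of the summed STRAD level in untreated WT and 63.4% ± 2.0 in *Lkb1*-/- MEFs, but 78.0% ± 1.2 in clone A1 and 75.6% ± 1.7 in clone A2. *Cab39* made up 69.3% ± 1.5 of the summed MO25 level in WT, 75.9% ± 0.58 in *Lkb1*-/- MEFs, 69.6% ± 0.88 in clone A1 and 73.2% ± 1.2 in clone A2. The summed MO25 level was 35.7 ± 0.13 RPKM in WT MEFs and between 21.1 and 24.8 RPKM in the untreated lines without LKB1. The summed STRAD level varied less, between 3.84 and 4.55 RPKM. *Stk11* transcript per summed STRAD transcript was 4.13 ± 0.22 in WT and 0.988 ± 0.092 in *Lkb1*-/- MEFs, and per summed MO25 transcript 0.526 ± 0.0097 and 0.153 ± 0.014.

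**Figure D4:**
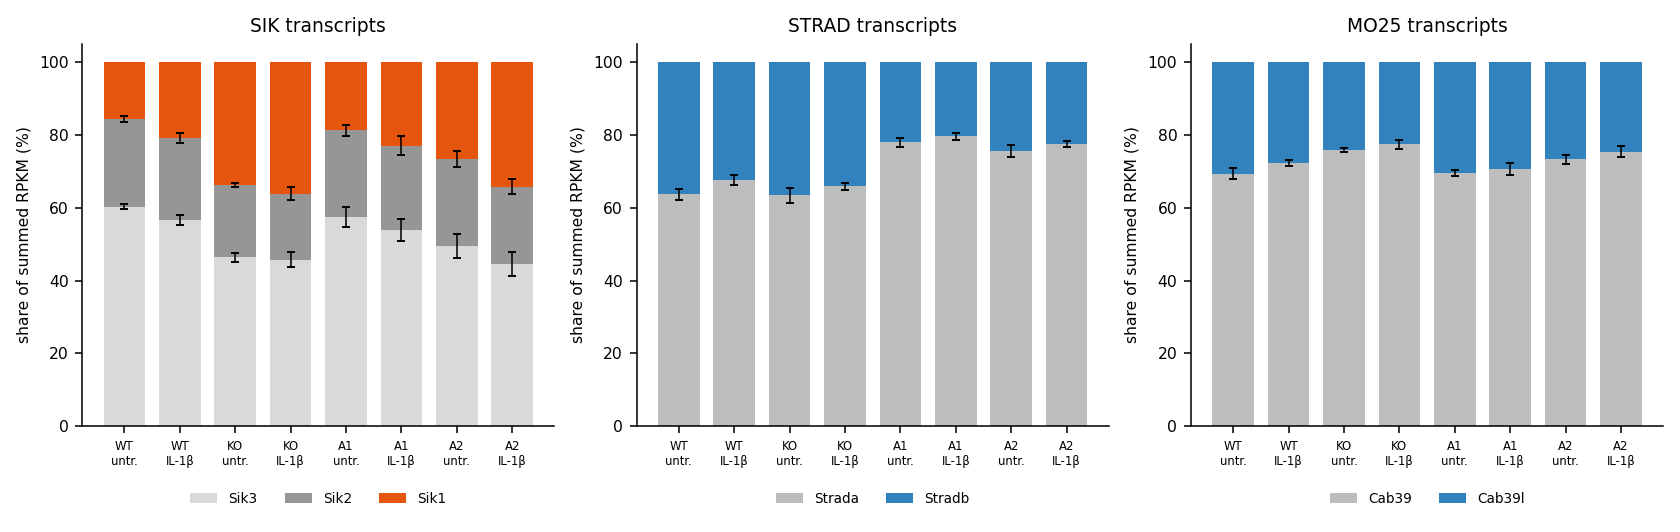
Share of each paralog in the summed RPKM (y axis, percent) of the SIK, STRAD and MO25 genes by line and treatment (x axis). Bars are means of 3 libraries, and error bars at each boundary give the SD of the share cut off there (for the upper SIK boundary, that of *Sik1*); the *Sik1* share is 15.7% in untreated WT and 33.8% in untreated *Lkb1*-/- MEFs.

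The IL-1β calls of members depended on the fit, and all of them were of *Sik1* outside the fits with the replicate block or without a single library. In the fit of all groups without the block, none of 8 was called by edgeR in any genotype, where 2.26% of all genes were called in WT, 4.74% in *Lkb1*-/- MEFs, 1.99% in clone A1 and 5.68% in clone A2. At an unadjusted p under 0.05 there were 3 members in WT, 0 in *Lkb1*-/- MEFs, 1 in clone A1 and 3 in clone A2, beside 11.4%, 14.7%, 10.7% and 17.6% of all genes, and DESeq2 called *Sik1* in WT and in clone A2 (FDR = 0.033 in each). In WT, *Sik1* was also called by edgeR under upper quartile scaling (FDR = 0.016), without the filter on low counts (FDR = 0.00022), with only the groups compared (FDR = 0.028) and without all libraries numbered 1 (FDR = 0.0056). The same alternatives other than only the groups compared called it in clone A2 (FDR = 0.019, 0.00039 and 0.013). With the replicate block the counts were 2, 1, 1 and 3, beside 9.3%, 14.8%, 9.61% and 17.9% of all genes.

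*Sik1* had the largest IL-1β difference of the members in WT MEFs and both clones, but not in *Lkb1*-/- MEFs. Its differences were 0.50 in WT MEFs (edgeR FDR = 0.075, and 0.00086 with the block), 0.05 in *Lkb1*-/- MEFs (95% interval -0.24 to 0.34, FDR = 0.93), 0.30 in clone A1 (FDR = 0.45, and 0.044 with the block) and 0.42 in clone A2 (FDR = 0.085, and 0.0013 with the block). In clone A2 it was called without untreated library 2 (0.55, FDR = 0.031) or treated library 1 (0.53, FDR = 0.026). The value was higher with IL-1β in 11 of 12 same-numbered pairs of libraries, the exception being number 1 of *Lkb1*-/- MEFs. Treated and untreated groups did not overlap in WT MEFs, overlapped in *Lkb1*-/- MEFs and clone A1, and lay 33.5 to 41.9 against 22.97 to 33.8 CPM in clone A2. The difference of the response between *Lkb1*-/- and WT MEFs was -0.45 (SE 0.196, FDR = 0.82, and 0.071 with the block) and was not called. No member was called in a comparison of responses, where 0.245% of all genes were called for *Lkb1*-/- minus WT, 0.0285% for clone A1 minus *Lkb1*-/- and 0% for clone A2 minus *Lkb1*-/- MEFs. At an unadjusted p under 0.05 these comparisons held 1, 0 and 1 members, beside 5.62%, 2.47% and 2.21% of all genes, and DESeq2 called 0 in each.

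*Cab39l* was lower with IL-1β in 12 of 12 same-numbered pairs. Its differences were -0.21 in WT (edgeR FDR = 0.29, and 0.015 with the block), -0.15 in *Lkb1*-/- MEFs (FDR = 0.48, and 0.085), -0.14 in clone A1 (FDR = 0.63, and 0.13) and -0.18 in clone A2 (FDR = 0.28, and 0.031, and 0.048 without untreated library 1). With the block, *Sik2* was also lower in *Lkb1*-/- MEFs (-0.19, FDR = 0.034, and 0.41 without it) and *Stk11* higher in clone A2 (0.19, FDR = 0.017, 0.11 without it, and 0.048 without it and without treated library 3). *Stradb*, *Sik2* and *Sik3* were each lower in 11 of 12 pairs, and apart from the blocked *Sik2* value none of them was called in any genotype. In WT MEFs, *Stk11* was at -0.02 (95% interval -0.16 to 0.12), and *Cab39*, *Sik2* and *Sik3* were closer to 0.

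**Figure D5:**
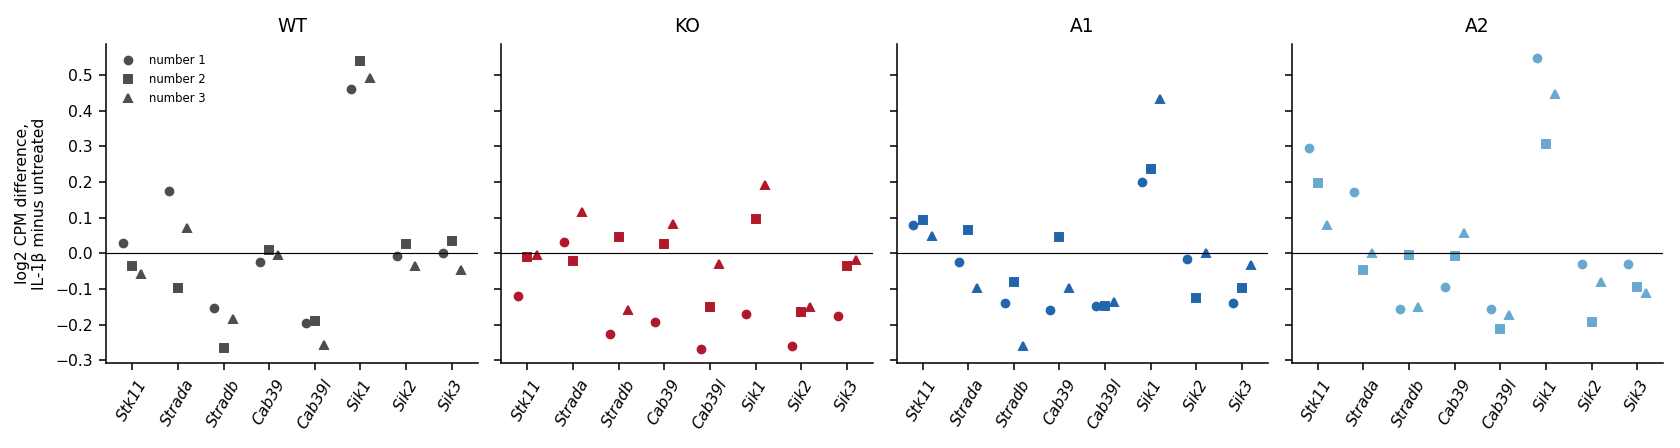
Difference in log2 CPM between IL-1β and untreated libraries of the same number (y axis) for the 8 genes (x axis), with 1 panel per line and circles, squares and triangles for numbers 1, 2 and 3. *Cab39l* lies below 0 in all 12 pairs and *Sik1* above 0 in 11 of 12.

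Genes with the most similar expression over the 24 libraries were ranked by Pearson correlation of log2 CPM among 9368 genes. The libraries fall into 4 lines, so these correlations mostly describe differences between lines. *Stk11* was most like *Pkp2* (r = 0.989), *Igf2bp1* (0.988) and *Nvl* (0.988). *Sik1* was most like *Aebp2* (0.937), *Mt1* (0.918) and *Plekhm2* (0.912), none of which is on chromosome 17. The closest genes to *Strada* were *Nup88* (0.925), *Thoc5* (0.914) and *Ascc2* (0.912), which share chromosome 11 with it, and *Tcf12* (0.963) and *Arih1* (0.952) share chromosome 9 with *Sik2*, whose next gene was *Pcdhgc3* (0.95). *Stradb* was most like *Hist1h2bf* (0.961), *Atp11a* (0.96) and the MARK kinase gene *Mark2* (0.958). *Cab39* was most like *Ide* (0.984), *Gars* (0.978) and *Prpf19* (0.978), *Cab39l* most like *Mboat1* (0.987), *Echdc1* (0.983) and *Nhsl1* (0.982), and *Sik3* most like *Atp5a1* (0.981), *Togaram1* (0.975) and *Phactr4* (0.974).

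Among the other kinases that LKB1 phosphorylates, 10 of 11 passed the filter, of which 2 were higher and 6 lower in untreated *Lkb1*-/- than in WT MEFs (median -0.28, beside 0.04 for all genes), where 30.1% of all genes were higher and 25.8% lower. The counts of this and the following lists are read against these shares, and in the clones against 18.9% higher and 16.4% lower for clone A1 and 17.1% higher and 15.1% lower for clone A2. *Nuak2* fell from 21.9 ± 1.5 to 7.52 ± 0.31 CPM (log2 fold change -1.54, edgeR FDR = 1.6e-09), and *Brsk1* rose from 7.15 to 20.2 CPM (1.50, FDR = 2.2e-11). *Mark1* had no read in the 3 WT libraries and 121 reads in the *Lkb1*-/- libraries, at least 39.5-fold higher at a floor of 3 counts over the WT group. Relative to *Lkb1*-/- MEFs, 4 were higher and 2 lower in clone A1, and 2 were higher and 3 lower in clone A2. *Nuak2* was higher in clones A1 (1.68) and A2 (0.66), *Mark2* lower in both (-0.70 and -0.41), and *Mark1* higher in clone A1 (0.82, FDR = 0.046) but not called in clone A2 (0.45, FDR = 0.29).

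Of 14 SIK substrate and 14-3-3 genes, 5 were higher and 4 lower in *Lkb1*-/- MEFs (median -0.01), beside 55.9% of all genes called in either direction. The largest changes were those of *Hdac9*, which encodes a class IIa histone deacetylase (from 0.301 to 1.63 CPM, log2 fold change 2.43, edgeR FDR = 0.00018), *Crtc1* (1.10, FDR = 3.7e-11) and *Hdac4* (0.68, FDR = 4.9e-06). *Crtc2*, the gene edited in the clones, was at 61.2, 56.5 and 57.5 CPM in untreated WT, 82.1, 79.1 and 82.3 CPM in *Lkb1*-/- MEFs, 45.2, 41.1 and 42.4 CPM in clone A1 and 50.6, 48.9 and 50.01 CPM in clone A2. *Crtc2* transcript was thus reduced in the clones, by -0.92 (FDR = 2.2e-09) and -0.70 (FDR = 9.9e-08), and reads per gene do not show whether the edited exon is intact. In the clones, 1 gene of the list was higher and 4 lower in each, among them *Hdac4* (-1.54 in A1 and -1.26 in A2), while *Hdac5* was higher in clone A2 (0.75, FDR = 0.00019) and was at 0.21 in clone A1 (FDR = 0.25).

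Of the 6 subunits of PKA, which inhibits SIKs, 2 were higher and 2 lower in *Lkb1*-/- MEFs, again beside 55.9% of all genes called. The regulatory subunit genes *Prkar2b* (from 131 to 38.4 CPM, log2 fold change -1.77, edgeR FDR = 8.2e-13) and *Prkar2a* (-1.15, FDR = 1.7e-10) fell, and the catalytic subunit gene *Prkaca* rose (0.51, FDR = 0.00022). Relative to *Lkb1*-/- MEFs, *Prkaca* was lower in clones A1 (-0.38) and A2 (-0.31) and *Prkar2b* higher in both (0.75 and 0.42), while *Prkar2a* was higher in clone A1 (0.81, FDR = 2.2e-07) and at 0.11 in clone A2 (FDR = 0.36). For the chaperones that fold LKB1, 0 of 3 were higher and 2 lower in *Lkb1*-/- MEFs, *Hsp90aa1* (-0.36) and *Cdc37* (-0.33). In clone A1 both were higher (0.42 and 0.48) and *Hsp90ab1* lower (-0.57), and in clone A2 1 was called, *Hsp90ab1* (-0.30, FDR = 0.0082).

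Of 14 CREB target genes other than *Sik1*, a list drawn up with results of these libraries known, 10 were higher and 0 lower in untreated *Lkb1*-/- MEFs (median 1.56, beside 0.04 for all genes, of which 30.1% were higher and 25.8% lower), 0 were higher and 8 lower in clone A1 than in *Lkb1*-/- MEFs (median -0.64, with 16.4% of all genes lower), and 0 were higher and 9 lower in clone A2 (median -0.81, with 15.1% of all genes lower). *Pde4b*, a phosphodiesterase gene, was at 3.75 CPM in WT, 194 CPM in *Lkb1*-/- MEFs, 86.8 CPM in clone A1 and 114 CPM in clone A2, and *Rgs2* rose from 1.08 to 11.2 CPM in *Lkb1*-/- MEFs. *Ppargc1a* had 2 reads in the 3 WT libraries and 366 in *Lkb1*-/- libraries, a ratio of 179 with a 95% counting interval of 49.2 to 1480. *Fos* (-0.40), *Fosb* (0.04), *Per1* (0.11) and *Crem* (0.30) were not called between untreated *Lkb1*-/- and WT MEFs. *Ppargc1a*, *Id2* and *Pde4d*, which were higher in *Lkb1*-/- MEFs, were not called in clone A1 relative to them (-0.25, 0.04 and -0.36, edgeR FDR = 0.55, 0.92 and 0.097). In the clones, *Areg* (-3.53 in A1 and -2.87 in A2), *Nr4a3* (-1.90 and -1.72) and *Nr4a1* (-1.24 and -0.85) were lower than in *Lkb1*-/- MEFs, each at an edgeR FDR of 0.00058 or less. Both directions rest on the same *Lkb1*-/- libraries. Set against untreated WT MEFs instead, 5 of the 14 were higher and 2 lower in clone A1 (median 0.14), and 6 were higher and 2 lower in clone A2 (median 0.15), where 55.4% and 60.6% of all genes were called.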

How the data were processed

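RNA-seq libraries of 50-base read pairs were analysed from the read counts per gene that the authors deposited for each of 24 libraries. The authors trimmed reads with Trim Galore (0.6.0) and counted them with STAR (2.7.8a) on GRCm38. Counts of the second read strand were used here (95.5% to 96.0% of stranded reads), without the 4 lines that name no gene (pairs on no gene were 26.7% to 34.4%). The paper and the labels name different library kits. Groups came from the labels. Genes passing filterByExpr (minimum count 10, total 15) were scaled by TMM and fitted over all 8 groups by the quasi-likelihood test of edgeR (4.0.16, limma 3.58.1, R 4.3.3), giving 17522 genes in 19 comparisons. A gene was called at a Benjamini-Hochberg FDR under 0.05 over all tested genes. Intervals are 95% on the log2 scale. RPKM used merged exons of GENCODE M21.

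Members, gene lists and tests were chosen with earlier results of these data known. Genes named were all 8 members, *Crtc2*, the 3 genes most correlated with each member among genes averaging over 3 on the log2 CPM scale, and up to 3 genes of each list with the largest called changes in *Lkb1*-/- MEFs and up to 3 in either clone. Marker genes and the CREB target genes given as not called were chosen after their values were seen. Chromosome medians and the fit without libraries numbered 1 were chosen after seeing the data. Same-numbered libraries deviated together from their group means in all 84 pairs (correlation 0.238 to 0.819 over 9369 expressed genes) and were treated as paired in the blocked fit, although the labels do not say what a number shares. Over all genes 15 of 84 correlations were at or under 0.1. Replicates differed by more than sampling noise, so none was a duplicate. DESeq2 (1.42.0), other scalings, filters and strand settings, and leaving out libraries were the alternatives.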

Additional observations from a re-analysis of the deposited data

How the results depend on the processing

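No member changed direction past the threshold under any alternative. In *Lkb1*-/- against WT MEFs, *Stk11*, *Cab39*, *Cab39l*, *Sik1*, *Sik2* and *Sik3* were called under both treatments in every alternative run, whereas *Strada* and *Stradb* were not. Over the single-member differences, the newer quasi-likelihood method kept all 152 on the same side of the threshold, DESeq2 148 and DESeq2 size factors 151. Upper quartile scaling kept 140, unstranded counts 143, no filter on low counts 139, and fits of only the groups compared 136. Upper quartile scaling raised the median of all genes by up to 0.11 (clone A1 against WT with IL-1β), and with it 57.4% of the genes called for IL-1β in WT were higher, beside 67.7%. With the replicate number as a block 137 stayed and the 15 that crossed the threshold are given beside their results. The block changed no other call of a member, and over all genes it raised the IL-1β calls in WT from 396 to 1629.

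Counts of called members that moved by more than 1.5 times were few, and their cause was not tested. Between untreated clones A2 and A1 the count of 3 became 6 with the replicate block, 5 with upper quartile scaling, and 1 with unstranded counts or with only the groups compared. Between those clones with IL-1β the 4 became 2 with only the groups compared. For clone A2 against *Lkb1*-/- MEFs with IL-1β the 5 became 3 with unstranded counts and 2 with only the groups compared. For IL-1β, where no member was called, WT gave 1 with DESeq2, upper quartile scaling, no filter, only the groups compared or without the libraries numbered 1, and 2 with the replicate block. Clone A2 gave 1 with the same alternatives except only the groups compared, and 3 with the block, while *Lkb1*-/- MEFs and clone A1 gave 1 each with the block. With unstranded counts the *Sik1* share of the SIK pool was 16.6% in untreated WT and 35.4% in untreated *Lkb1*-/- MEFs.

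Leaving out single libraries gave 6 to 8 members for *Lkb1*-/- against WT MEFs untreated and 7 with IL-1β, 6 to 7 for clone A1 against *Lkb1*-/- MEFs under both treatments, and 3 to 5 for clone A2 under both. It gave 4 to 5 for clone A1 against WT untreated and 5 with IL-1β, 6 to 8 for clone A2 against WT under both treatments, 2 to 4 between the clones untreated and 2 to 5 with IL-1β, 0 to 1 for IL-1β in clone A2, and 0 for IL-1β in the other lines and for the comparisons of responses. Leaving out all libraries numbered 1 at once, with IL-1β, gave 6 for *Lkb1*-/- against WT MEFs. It also gave 6 for each clone against *Lkb1*-/- MEFs and 6 between the clones. Untreated, it gave 7 for clone A1 and 4 for clone A2 against *Lkb1*-/- MEFs and 4 between the clones. For IL-1β against untreated libraries it gave 1 in WT MEFs and 1 in clone A2. Among the members, counting error weighs most on *Stradb*, with 226 counts in its lowest library.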
